A study of Mus musculus with 4 samples.

Results

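The comparison described here is the effect of miR-142 loss on gene expression in CD4-equivalent dendritic cells (DCs): the array of the knockout (ko, miR-142-/-) minus the array of the wild type (wt, miR-142+/+), gene by gene. These are 2 of the 4 arrays of the study; the other 2 hold CD8-equivalent DCs of the same genotypes. Both genotypes were on the C57BL/6 background. Bone marrow cells were cultured with Flt3-L, the growth factor of DC development, at 200 ng/ml for 8 days, so the cells are culture-grown counterparts of spleen DCs and not DCs taken from the animal. Both sorted fractions were B220- and CD11c+; the CD4-equivalent gate took CD172+ cells that were CD24low and CD11b+, and the CD8-equivalent gate CD172- cells that were CD24+ and CD11blow. The ko is described only as miR-142-/-, with no Cre or promoter named. The number of animals or cultures pooled for an array is not given in the sources used here. Values are log2 expression levels, and genes entered the comparison if either array reached a floor of 5.68, the median of all probe sets with 1 gene symbol. Of 19938 genes measured, 9978 were compared. There were no replicates, so every difference is a size with no test, and it holds the spread between 2 preparations as well as any effect of genotype. In sorted bulk cells, fewer cells of a type and less RNA per cell cannot be told apart.

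miR-142 is a microRNA made almost only in blood cells, where it is among the most abundant. MicroRNAs guide Argonaute proteins to messenger RNAs that pair with their seed, the bases near the 5′ end, and lower the stability or translation of those messengers. DCs come as conventional DCs, which present antigen and fall into a CD8-equivalent (cDC1) and a CD4-equivalent (cDC2) lineage, and as plasmacytoid DCs, which are specialised in type I interferon production. The gene Mir142 gives a product from each arm of its hairpin, and these sequences are shown because they are what the ko cells lack. They come from RefSeq (GRCm38.p6), on the plus strand, with the seed (bases 2 to 8) in capitals, and the last line gives the hairpin at chr11:87756864-87756927 with both mature products in capitals.
mmu-miR-142a-5p: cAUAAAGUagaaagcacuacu
mmu-miR-142a-3p: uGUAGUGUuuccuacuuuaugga
hairpin: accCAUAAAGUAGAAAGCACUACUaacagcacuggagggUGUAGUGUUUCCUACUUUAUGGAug
The mature products are 21 and 23 bases long and do not share a seed. Messengers that pair with them over the whole seed carry ACTTTAT for the 5p arm and ACACTAC for the 3p arm.

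Mir142 itself read 10.37 on the wt and 4.92 on the ko array of CD4-equivalent DCs. The ko value lay below the floor, and the difference of -5.45, 43.7-fold, was the most negative of all genes compared. It checks the genotype labels only if the probe set lies in the deleted part, which the labels do not describe. In the gene order of RefSeq (GRCm38.p6), 7 of the 16 nearest measured genes around Mir142 were compared, and 3 of them were at least 2-fold higher and 0 lower: Rnf43 next to it, Mpo on the other side, beyond Tspoap1 (below the floor), and Ppm1e, a protein phosphatase gene (5.06 in wt and 6.22 in ko). Between and around them, Mtmr4 (9.96 and 9.74), Mks1 (6.00 and 5.78), Rad51c (6.46 and 6.87) and Trim37 (9.13 and 9.14) differed by under 2-fold. In CD4-equivalent DCs these 3 reached the floor on the ko array alone, so they entered through the array where they are high. Of all genes compared, 1.39% were at least 2-fold higher. Rnf43, Mpo and Ppm1e were also higher in CD8-equivalent DCs, by 3.67, 2.76 and 1.09. These neighbours were named for their position, outside the naming rule and with their values seen, and what part that position had in the values was not tested. Among the sort markers, Sirpa, which encodes CD172a, read 12.11 in wt and 11.92 in ko, against 9.69 and 9.67 in CD8-equivalent DCs. Itgam, which encodes CD11b, read 12.02 and 11.76, against 10.01 and 9.89 in CD8-equivalent DCs. Both genes set the CD4-equivalent arrays of either genotype above the CD8-equivalent ones, in the direction of the gates. Itgax, which encodes CD11c, read 10.52 in wt and 11.12 in ko. Cd24a, whose product was gated as low here, read 10.98 (wt) and 11.98 (ko), between the wt value and the CD8-equivalent levels of 12.76 and 12.72. Cd4 itself, the surface protein after which the subset is called, read 4.70 and 4.73, below the floor on both arrays, and so did Esam (4.30 and 4.38), a marker of spleen cDC2.

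Of the 9978 genes compared, 234 differed by at least 2-fold, which is 2.35%: 139 were higher in ko (1.39%) and 95 were lower (0.952%). The median difference was -0.08 and the SD over genes 0.38, with 95% of genes between -0.69 and 0.77. Genes below the floor on both arrays, 9960 in number, had an SD of 0.13. A second probe set for the same gene gave a measure of technical spread within an array pair: over 644 genes the SD of the disagreement was 0.20, and of 13 genes past 2-fold by the first probe set, 13 had the same sign and 7 also passed 2-fold by the second. Some pairs gave equal differences, such as those of Cdc5l (-0.07 by both) and Snord118 (0.87 by both). A second probe set is thus not always a separate measurement, and this SD may understate the technical spread. At the 2-fold limit, Cd24a (1.004) lay just inside and Pbk (0.999) just outside among higher genes, and Cdc42ep3 (-1.001) and Pde8a (-0.999) among lower ones. In CD8-equivalent DCs, measured on arrays of their own, 214 of 9972 genes differed by at least 2-fold (2.15%), 114 higher (1.14%) and 100 lower (1%).

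The 15 largest positive differences included 5 members of the granulocyte lists (Ngp, Lcn2, Retnlg, S100a9 and S100a8) and 2 of the progenitor list (Eya1 and Hoxa9). Ngp, neutrophilic granule protein, read 5.61 in wt and 9.47 in ko, 14.5-fold higher. Lcn2, the iron-siderophore binder lipocalin 2, read 6.47 in wt and 10.28 in ko, a difference of 3.80. Rnf43, a membrane ubiquitin ligase that lowers surface Wnt receptors, read 5.46 and 9.18. Eya1, a transcriptional coactivator and phosphatase, read 5.84 and 9.46, and Hoxa9, a homeobox factor of blood progenitors, 5.36 and 8.82. Of these 5 genes, Ngp, Rnf43 and Hoxa9 lay below the floor in wt, and all of them were far above it in ko. Klk1b11, a tissue kallikrein, started from a high level and read 8.80 in wt and 11.96 in ko, though its near-identical paralogs may share probes with it and make the value uncertain. Clec9a, the receptor by which cDC1 sense actin of dead cells, read 7.78 and 10.85, and Cadm1, an adhesion molecule of cDC1, 7.22 and 9.89. Ccr9, a gut-homing chemokine receptor of plasmacytoid DCs, read 6.59 and 9.06. The 15 highest genes were completed by Retnlg, S100a9 and S100a8, by the sodium pump subunit Atp1b1 (7.67 and 9.94), by the TGF-beta-induced gene Pmepa1 (5.88 and 8.13) and by the focal adhesion protein gene Tns1 (7.05 and 9.27). The mean of the 6 probe sets of Tns1 put its difference at 1.19 instead of 2.22.

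**Figure D1:**
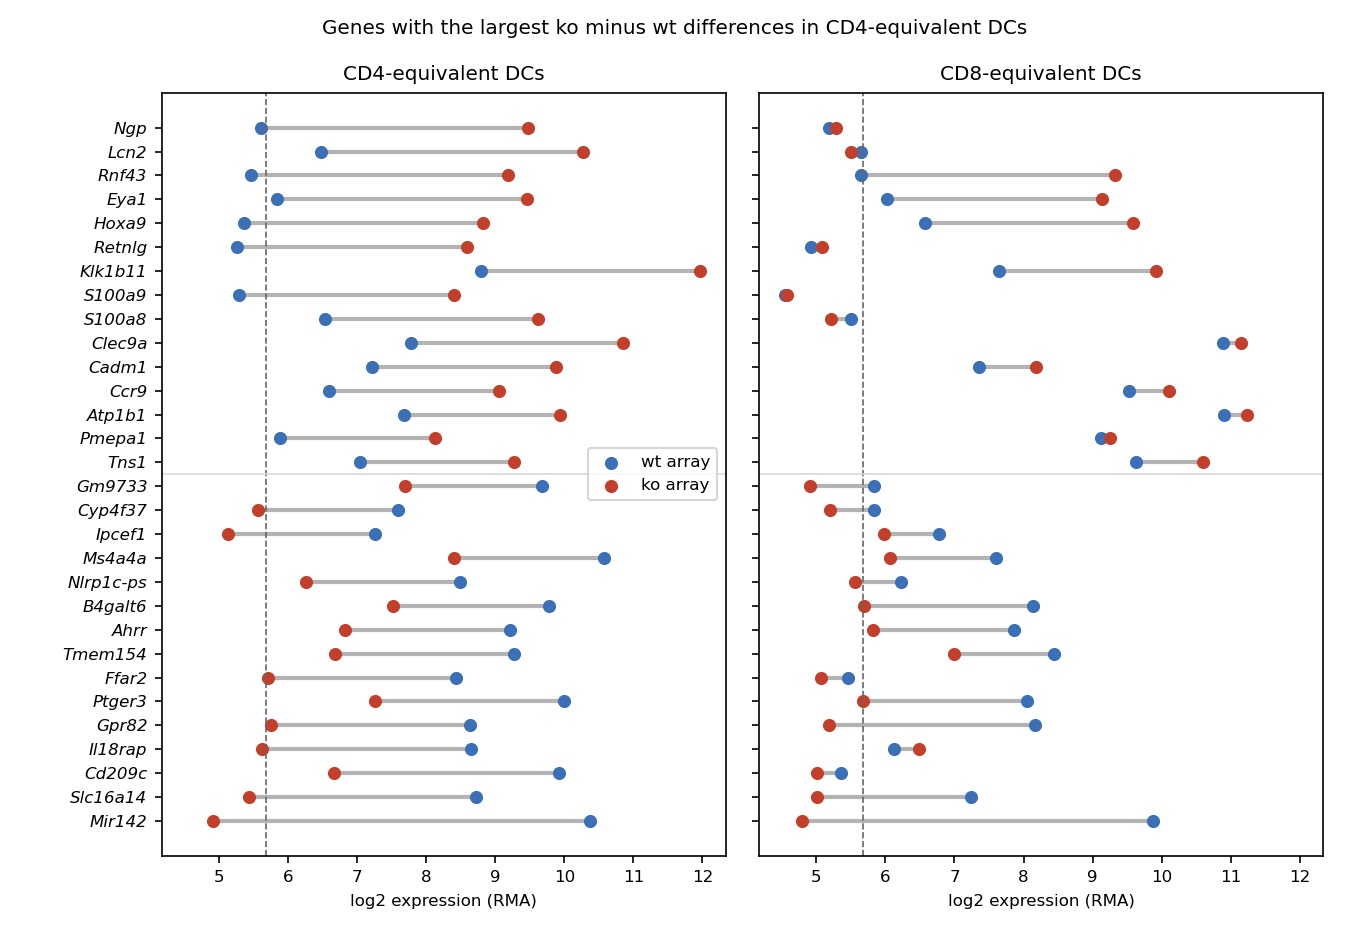
Log2 expression of the 15 genes with the largest positive and the 15 with the largest negative ko minus wt difference in CD4-equivalent DCs (left), with the same genes in CD8-equivalent DCs (right); each point is 1 array, blue for wt and red for ko, and the dashed line is the floor of 5.68. Mir142, Gpr82, Rnf43, Eya1 and Hoxa9 are far apart in both panels, whereas Ngp, Lcn2, Retnlg, S100a8 and S100a9 are far apart only on the left and lie below the floor on the right.

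After Mir142, the most negative difference was that of Slc16a14, which encodes a member of the monocarboxylate transporter family; it read 8.72 in wt and 5.43 in ko, 9.74-fold lower. Cd209c, a DC-SIGN-related lectin, read 9.92 and 6.67. Il18rap, the accessory chain of the interleukin-18 receptor, read 8.64 and 5.63, below the floor in ko. Gpr82, an orphan receptor, read 8.63 and 5.76, and Ffar2, the receptor for short-chain fatty acids, 8.43 and 5.71. Ptger3, the EP3 receptor for prostaglandin E2, read 9.99 and 7.26. Ahrr, the repressor of the aryl hydrocarbon receptor, read 9.21 and 6.82, and B4galt6, which makes lactosylceramide, 9.78 and 7.53. Tmem154 read 9.28 and 6.68, a difference of -2.60 that was -1.81 over the mean of its 2 probe sets. Ms4a4a, a tetraspan membrane protein gene, read 10.57 and 8.40. The inflammasome pseudogene Nlrp1c-ps (8.48 and 6.26), Ipcef1 (7.26 and 5.13), the cytochrome P450 gene Cyp4f37 (7.60 and 5.57) and the predicted gene Gm9733 (9.67 and 7.69) completed the 15 lowest. Like Mir142 and Il18rap, Slc16a14, Ipcef1 and Cyp4f37 lay below the floor in ko and so entered through the wt array alone.

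Granulocyte genes were described in 3 lists by the stage at which they are made. Together the lists had 48 measured members, of which 32 reached the floor on either array and 10 of these on the ko array alone, so the members compared lean towards higher values in ko by the way they were chosen. With that limit, 13 of the 32 were higher in ko by 2-fold or more (1.39% of all genes were) and 0 lower, and the median over all 48 was 0.25. Among primary granule genes, the myeloperoxidase gene Mpo read 5.18 in wt and 7.02 in ko, and the proteinase 3 gene Prtn3 6.70 and 7.92. Ctsg (5.78 and 6.76) and Elane (4.79 and 5.72), which encode cathepsin G and neutrophil elastase, were higher by 0.97 and 0.94. Among secondary and tertiary granule genes, besides Ngp and Lcn2, the lactoferrin gene Ltf read 4.56 and 6.31, the gelatinase gene Mmp9 4.54 and 6.04, the protease inhibitor gene Slpi 6.64 and 8.64, the chitinase-like gene Chil3 4.47 and 5.75 and the peptidoglycan-binding Pglyrp1 7.51 and 8.58. S100a8 read 6.54 and 9.62 and S100a9 5.29 and 8.40; together they encode calprotectin. Retnlg, a resistin-like protein gene of neutrophils, read 5.26 and 8.59, and Cxcr2, their main chemokine receptor, 5.09 and 6.17.

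Other granulocyte genes were lower in ko or not detected. Csf3r, the G-CSF receptor, read 7.83 in wt and 7.09 in ko, Mmp8, the neutrophil collagenase, 8.48 and 7.79, and the decoy receptor gene Il1r2 11.30 and 10.46. Camp (4.88 and 5.10), Ly6g (4.69 and 5.53) and the granulocyte factor gene Cebpe (4.65 and 4.71) lay below the floor on both arrays. The summed linear level of the 3 lists was 27188 in wt and 28473 in ko, since it is carried by genes that DCs also express, such as Cybb (12.98 and 12.94) and Anxa1 (11.61 and 11.11). The gate required CD11c, and no value here measures the purity of the sort. What part granulocytes in the sorted fraction had in these values was not tested. In CD8-equivalent DCs only 17 of the members were compared, 3 of them 2-fold or more higher (1.14% of all genes there were) and 3 lower (1%). Ngp, Lcn2, Retnlg, S100a8, S100a9, Ltf and Mmp9 lay below the floor on both arrays there. The 3 higher ones there came from the list named for primary granules, not all of whose members encode granule proteins. Mpo read 4.79 in wt and 7.55 in ko, Ctsg 6.26 and 7.96, and Igfbp4, an insulin-like growth factor binding protein gene, 8.41 and 9.54.

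**Figure D2:**
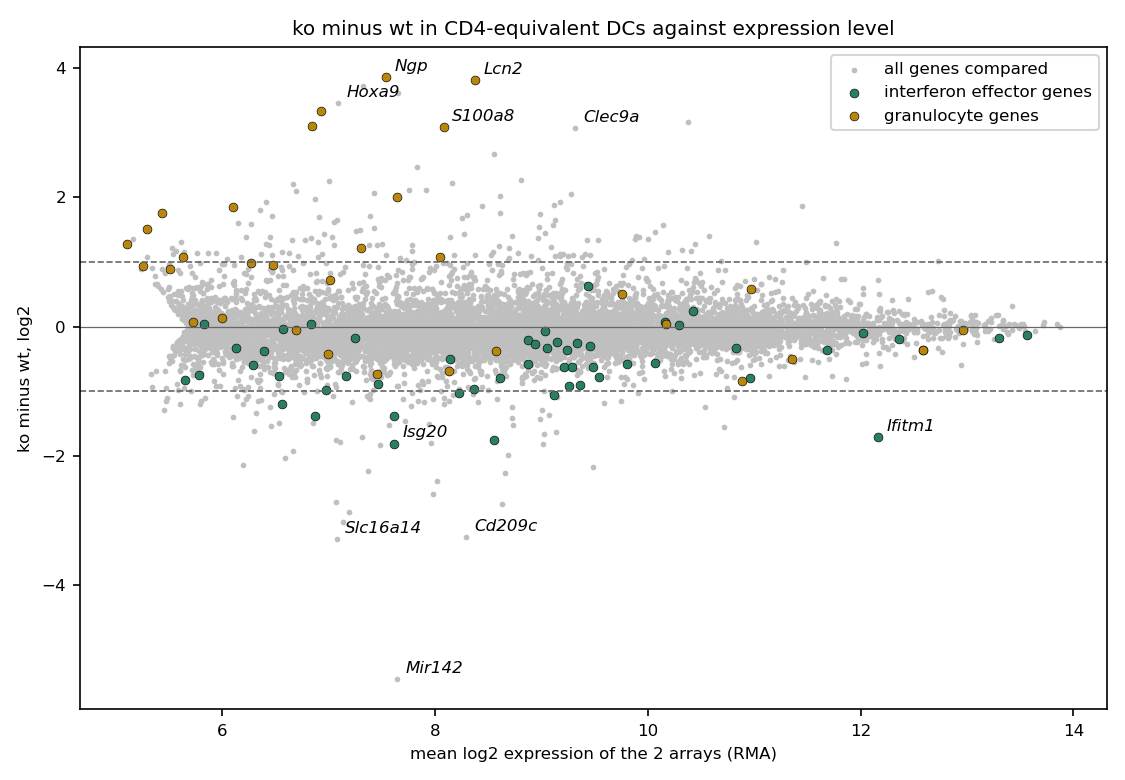
Ko minus wt log2 difference in CD4-equivalent DCs against the mean log2 level of the 2 arrays for the 9978 genes compared (grey), with interferon effector genes in green and granulocyte genes in orange; dashed lines mark 2-fold. The granulocyte genes far above the upper line have mean levels from about the floor to the middle of the range, and the interferon effector genes lie mostly between 0 and the lower line at all levels.

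Genes of the other DC lineages were higher in ko in part. Of 18 plasmacytoid DC markers compared, 5 were at least 2-fold higher (1.39% of all genes were), 1 was lower (0.952% of all genes) and 15 lay above 0, with a median of 0.64 against -0.08 for all genes compared. Besides Ccr9, the Siglec gene Siglech read 9.88 in wt and 11.28 in ko, the inhibitory collagen receptor gene Lair1 8.12 and 9.86, the signalling adaptor gene Blnk 6.82 and 8.08 and the cytochrome oxidase subunit gene Cox6a2 8.58 and 9.68. Tcf4, the transcription factor that sets plasmacytoid identity, read 10.08 and 10.91, and Spib, another such factor, 10.74 and 11.39. Ptcra and Dntt, which plasmacytoid cells of marrow express, lay below the floor on both arrays, and Cd209d was lower in ko (7.90 and 6.82). The summed level of the list was 12522 in wt and 19186 in ko, against 19037 and 21692 in CD8-equivalent DCs. In wt CD8-equivalent DCs Ccr9 (9.52), Siglech (11.34), Lair1 (9.60), Blnk (8.31) and Cox6a2 (11.34) read above their wt CD4-equivalent levels, and Cd209d (5.44) below. Of the 18 markers, 2 reached the floor on the ko array alone, and the median over all 21 measured was 0.56. For 18 cDC1 markers the median was 0.02, and 5 were at least 2-fold higher, against the same 1.39%, and 0 lower: Clec9a, Cadm1, Tlr12 (5.35 and 6.95), Irf8 (11.13 and 12.42) and Cd24a. Irf8 encodes the factor that cDC1 and plasmacytoid development need, and Tlr12 a receptor for profilin of parasites. Tlr12 reached the floor on the ko array alone and so entered through it, and the median over all 24 measured was 0.05. Tlr3, the sensor of double-stranded RNA in cDC1, read 7.81 and 8.79, and the chemokine receptor gene Xcr1 was 0.49 higher. Cd8a and Itgae, which define cDC1 in tissue, lay below the floor on both arrays. In CD8-equivalent DCs, where the list stands highest, 0 of 21 cDC1 markers were at least 2-fold higher (1.14% of all genes there were). There 5 were at least 2-fold lower (1% of all genes there), and the median was -0.50. The summed level of cDC1 markers was 27546 in wt and 34506 in ko CD4-equivalent DCs, against 59366 and 50244 in CD8-equivalent DCs. Whether the ko sort held more plasmacytoid or cDC1 cells was not tested.

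The markers of CD4-equivalent DCs themselves differed in either direction. Of 22 cDC2 markers compared, 1 was at least 2-fold higher (1.39% of all genes were) and 3 were lower (0.952% of all genes); 12 lay above 0 and 10 below, from -1.80 to 1.13 with a median of 0.03. Their summed levels, which the brightest members carry, were 48141 in wt and 48411 in ko. Irf4, the factor of cDC2 development, read 10.62 in wt and 10.04 in ko, Klf4 10.67 and 11.24, and the fractalkine receptor gene Cx3cr1 10.56 and 11.27. The 3 lower markers were the lectin genes Clec4a4 and Clec4a2 and the lymphotoxin beta gene Ltb (6.79 and 5.60), and the higher one was the lectin gene Mgl2 (8.21 and 9.35). Ltb reached the floor on the wt array alone and so entered through it, and 1 other marker on the ko array alone. The median over all 24 measured was 0.03. Of 17 monocyte and macrophage markers compared, 2 were at least 2-fold higher (1.39% of all genes were) and 1 was lower (0.952% of all genes), with a median of 0.22. Chil3, a higher one, reached the floor on the ko array alone (4.47 in wt and 5.75 in ko), and the median over all 24 measured was 0.03. Adgre1, the classic surface marker of mouse macrophages, read 11.49 and 9.94. C1qb, a chain of complement C1q, read 8.45 and 9.48, and C1qc 7.66 and 8.62, while C1qa lay below the floor (5.31 and 5.21). Of the markers of other cells, 2 of 11 for B cells, 3 of 14 for T or NK cells, 0 of 10 for erythroid cells and megakaryocytes and 2 of 17 for mast cells, basophils or eosinophils reached the floor, and none of those compared differed by 2-fold. Cd79a, Ms4a1, Cd3e and Gata1 were among those below it.

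Most interferon effector genes read lower in ko, few of them by 2-fold. Type I interferon induces these antiviral genes, many of them through a known promoter element, and cells keep a low level of the programme without infection. Over 4 lists with 61 measured members, 53 were compared, 47 lay below 0 and 6 above, 8 were at least 2-fold lower (against 0.952% of all genes) and 0 higher, and the median was -0.56. After cyclic loess 6 were at least 2-fold lower, 45 lay below 0 and the median was -0.46. As deposited, 2 of the 53 reached the floor on the wt array alone, and the median over all 61 measured was -0.36. Of the RNA sensors and adaptors, Ddx58, which encodes RIG-I, read 9.72 in wt and 8.80 in ko, and its regulator Dhx58 9.65 and 8.59, a difference of -1.06 that was -0.95 after cyclic loess. The 6 oligoadenylate synthetase genes compared, whose products switch on RNase L, were all lower: Oas1a read 7.56 and 6.18, Oas2 8.85 and 7.89, Oas3 7.54 and 6.79, and Oasl2 9.53 and 8.90. Among IFIT, IFITM and related effectors, Isg20, an RNA exonuclease gene, read 8.52 and 6.71, the chaperone gene Rtp4 9.43 and 7.68, and Ifitm1, whose product blocks virus entry, 13.02 and 11.31. Ifit1 (7.47 and 6.49) and the deISGylase gene Usp18 (9.82 and 8.91) were lower by under 2-fold, and Xaf1 (8.74 and 7.71) by 2-fold as deposited and 0.93 after cyclic loess.

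The guanylate-binding protein genes Gbp8 (8.31 in wt and 6.92 in ko) and Gbp9 (7.15 and 5.96), which act against intracellular pathogens, were lower, while Gbp3 read 5.81 and 5.84. Oas1, Gbp and Ifitm genes lie in clusters of similar copies that may share probes, so single values are uncertain. Bst2, which tethers virus particles and is also a plasmacytoid marker, was the member most above 0, with 9.12 in wt and 9.75 in ko. Of the 18 interferon receptor and signalling genes compared, 1 (Irf8) was at least 2-fold higher (1.39% of all genes were) and 0 were lower, and Stat2 read 9.83 and 9.37. Ifnb1 lay below the floor at 4.63 and 4.72. In CD8-equivalent DCs 43 members of the 4 effector lists were compared, 30 below 0 and 5 at least 2-fold lower (against 1% of all genes there), with a median of -0.32. There Ifitm1 read 12.97 in wt and 9.66 in ko and Isg20 7.59 and 6.55, while Gbp8 was 0.34 higher. The effector lists also stand lower in CD8-equivalent wt cells, with a summed linear level of 57499 against 80299 in CD4-equivalent wt cells, and the ko CD4-equivalent array reads 61323. That array also carried the higher cDC1 and plasmacytoid markers given above, whose part in these lower values was not tested.

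Because the members lay below 0 together, their promoters were searched for the core of the interferon-stimulated response element, GAAANNGAAA, on either strand (TTTCNNTTTC in reverse), within the 250 bases before the start given by RefSeq (GRCm38.p6). No other motif was searched. A match was present in 14 of 39 members with a promoter window (35.9%), against 3.46% of 27025 genes with a window and 3.27% of the genes compared. The lists were chosen as interferon-induced genes, so a share above that of all genes follows from the choice of members. It is not a result about ko against wt. Of the RNA sensors and adaptors, 0 of 10 with a window had a match. The 14 members with a match had a median difference of -0.61, with 12 below 0, and the 25 without a match a median of -0.33, with 22 below 0. The 14 members with no promoter window had a lower median still, -0.81, with 13 below 0. Members at least 2-fold lower numbered 1 with a match, 3 without and 4 with no window. For the members with no window it is not known whether a match is present. Whether a match goes with the size of the difference was not tested. The match was found in 5 of 73 genes at least 2-fold lower that had a window (6.85%) and in 4 of 114 at least 2-fold higher (3.51%). These stretches show the matches, in capitals, of members that were lower in ko, and last of Bst2, which was higher; each is given along the strand of its gene. Oas1a lies at chr5:120907526-120907570 (minus strand), Ifit1 at chr19:34640760-34640838 (plus), Oas3 at chr5:120777700-120777759 (minus), Gbp7 at chr3:142530258-142530317 (plus) and Bst2 at chr8:71537562-71537627 (minus).
Oas1a: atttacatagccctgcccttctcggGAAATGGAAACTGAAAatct
Ifit1: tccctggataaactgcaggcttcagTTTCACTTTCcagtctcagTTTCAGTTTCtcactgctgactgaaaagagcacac
Oas3: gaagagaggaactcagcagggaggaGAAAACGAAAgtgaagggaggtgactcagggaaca
Gbp7: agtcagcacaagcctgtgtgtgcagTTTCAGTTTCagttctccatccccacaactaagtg
Bst2: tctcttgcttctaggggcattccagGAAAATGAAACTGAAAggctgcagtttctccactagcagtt
The differences of these genes were -1.38, -0.97, -0.76, -0.82 and 0.63 in CD4-equivalent DCs, so a match was present in promoters of members on either side of 0.

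Pattern receptors differed gene by gene, with C-type lectins far out on both sides. Of 25 C-type lectin receptors compared, 7 were at least 2-fold lower (0.952% of all genes were), 3 were higher (1.39% of all genes) and the median was -0.07. Besides Cd209c and Cd209d, the lower ones were Clec4n, which encodes the fungal receptor Dectin-2 (9.85 in wt and 8.19 in ko), Clec4a4 (8.86 and 7.06), Clec4b1 (9.43 and 8.01), Clec4a2 (9.69 and 8.60) and Clec4g (6.78 and 5.70). Clec4a2 was -0.97 after cyclic loess, and Clec4g was -0.46 over the mean of its probe sets, so neither keeps a 2-fold difference there. Clec7a, which encodes the beta-glucan receptor Dectin-1, read 8.18 and 10.05 and was 3.66-fold higher in ko, whereas in CD8-equivalent DCs it read 7.15 in wt and 6.24 in ko. Of 23 Toll-like receptor genes and adaptors, 1 was at least 2-fold higher (1.39% of all genes were) and 1 lower (0.952% of all genes). The higher one was Tlr12, which reached the floor on the ko array alone, and the lower one Tlr8 (8.70 and 7.64). Tlr13, a sensor of bacterial ribosomal RNA, read 10.72 and 9.73. All 8 Fc receptor genes compared, 2 of which reached the floor on the wt array alone, stayed under 2-fold, and the median over all 14 measured was -0.06; the low-affinity IgG receptor gene Fcgr3 read 9.01 and 8.16 and Fcgr4 6.12 and 5.16. Among SIRP, CD300 and Siglec receptors, Cd300ld was lower (8.69 and 7.19), and Pilrb1 (5.76 and 7.15) and Treml2 (7.15 and 8.41) were higher, besides Siglech and Lair1.

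In the interleukin-1, interleukin-18 and inflammasome list, 23 of 30 measured genes were compared, of which Il18, Il18rap and Nlrp1b reached the floor on the wt array alone and so entered through the array where they are high. With that limit, 4 were at least 2-fold lower (0.952% of all genes were) and 0 higher, and the median over all 30 was -0.13. Il18 read 6.80 in wt and 5.40 in ko, and Il18rap, the accessory chain of its receptor, 8.64 and 5.63. In CD8-equivalent DCs Il18rap read 6.12 in wt and 6.48 in ko, and Il18 lay below the floor. Nlrp1a (7.28 and 5.78) and Nlrp1b (6.78 and 5.66), sensors that start pyroptosis, were lower together with Nlrp1c-ps, though these neighbours are similar in sequence and may share probes. Il1b read 8.54 and 7.99. Among cytokines, Tnfsf14, which encodes LIGHT, read 7.62 and 5.70, and Il12b, the p40 subunit of interleukin-12, 4.97 and 6.10. Il12b reached the floor on the ko array alone and so entered through it, and it lay below the floor in CD8-equivalent DCs. Of the 29 cytokine genes measured, 2 reached the floor on the ko array alone and 2 on the wt array alone, and their median was -0.03. Of costimulatory genes, Cd86, the ligand of CD28, read 9.75 and 8.39 and was 2.58-fold lower in ko, and Cd80, the other ligand, 10.00 and 9.23. Cd28 itself, known from T cells, was outside the lists and read 7.61 and 9.62 (chosen after its values were seen). Cd200r4 (6.24 and 7.85) and Slamf8 (7.56 and 8.99) were higher. All 20 genes of MHC class II presentation and all 20 of class I presentation that were compared stayed under 2-fold, with medians of -0.14 and 0.04.

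Among receptors for lipids and metabolites, Gpr82 and Ffar2 were in the 15 lowest genes. Of 30 G protein-coupled receptors of this list compared, 4 were at least 2-fold higher (1.39% of all genes were) and 4 lower (0.952% of all genes), with a median of -0.01. Chrm3, a muscarinic acetylcholine receptor, read 5.57 in wt and 7.77 in ko, S1pr3, for sphingosine-1-phosphate, 6.24 and 7.68, the ADP receptor gene P2ry12 5.99 and 7.33, and Ffar4, for long-chain fatty acids, 6.69 and 7.90. Of these, Chrm3 reached the floor on the ko array alone and so entered through it. Lower were Gpr82, Ffar2, Gpr18 (10.42 and 9.39) and P2ry14 (8.30 and 7.27); the last pair were -0.91 after cyclic loess. Among eicosanoid genes, Alox5, the 5-lipoxygenase gene of leukotriene synthesis, read 8.26 and 10.30, 4.13-fold higher, while Ltb4r1, the leukotriene B4 receptor gene, read 8.26 and 7.14 and Ptger3 was lower as given above. The cholesterol efflux pump gene Abca1 read 7.42 and 9.10, the only one of 21 cholesterol genes past 2-fold. Ahrr and Irf8 were the only members past 2-fold among 37 transcription factors of DCs. Of all genes compared, 2.35% passed 2-fold either way.

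Of 13 scavenger and apoptotic cell receptor genes compared, 6 were higher in ko by 2-fold or more (1.39% of all genes were) and 0 lower. Itgb5 read 8.33 in wt and 9.90 in ko and Itgav 9.44 and 10.49; their products pair as the integrin that binds apoptotic cells through MFG-E8. Axl, a receptor kinase for the same task, read 7.97 and 9.12, Lrp1, the LDL receptor-related protein gene, 9.61 and 10.76, and Havcr1, which encodes TIM-1, 4.75 and 5.83. C1qb was the remaining one. Against this, the scavenger receptor genes Msr1 (6.60 and 5.64) and Cd36 (9.21 and 8.42) were lower by under 2-fold, and 15 of 28 measured members, among them Mertk, Tyro3 and Timd4, lay below the floor. The median over all 28 was 0.07. Havcr1 reached the floor on the ko array alone and Msr1 on the wt array alone, so each entered through the array where it was high. In CD8-equivalent DCs 0 of 12 were at least 2-fold higher (1.14% of all genes there were) and 3 were lower (1% of all genes there). Axl (0.12) and Lrp1 (0.08) barely differed there, and Itgb5 was 0.67 higher.

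**Figure D3:**
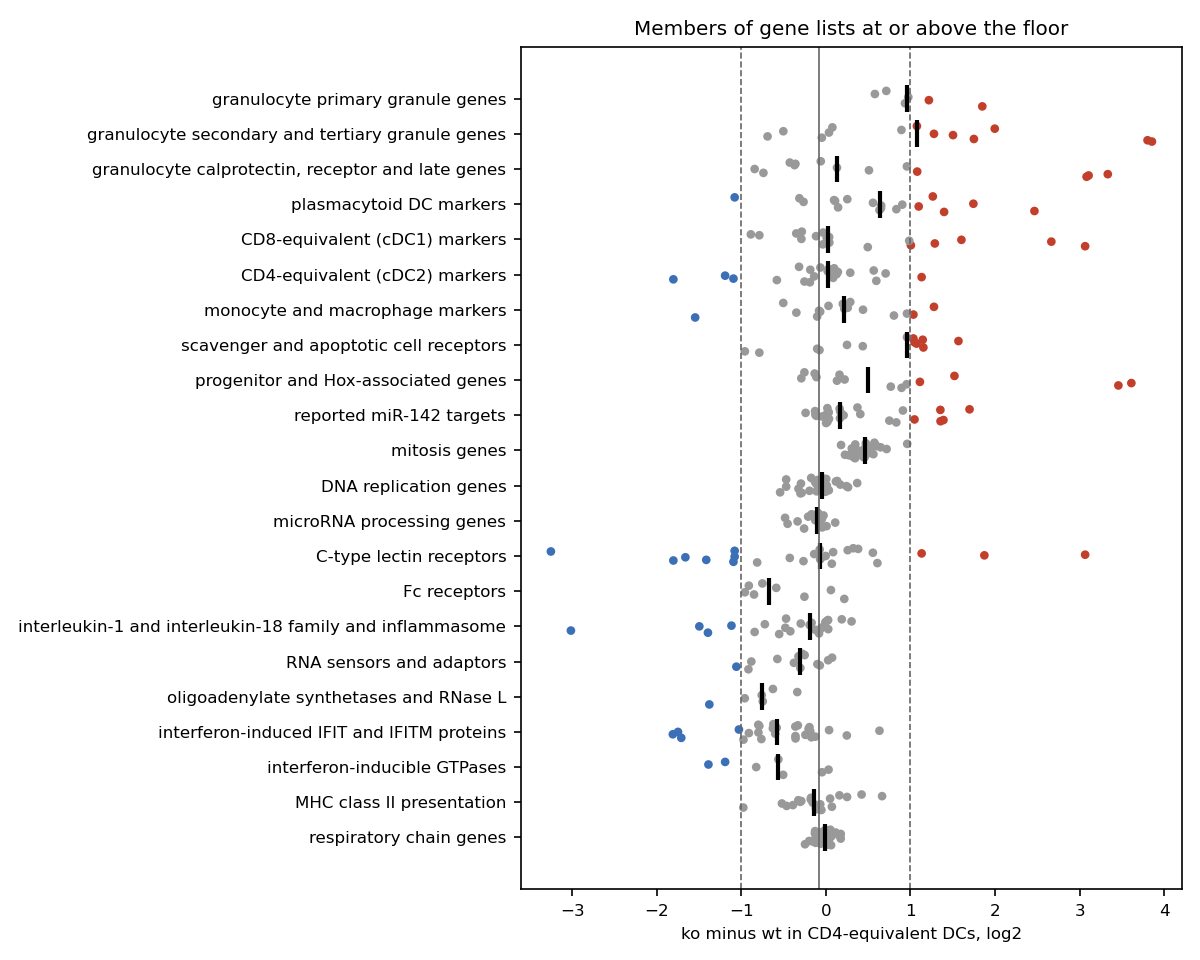
Ko minus wt log2 differences in CD4-equivalent DCs for members of 22 gene lists at or above the floor; each point is 1 gene, red for at least 2-fold higher and blue for at least 2-fold lower in ko, black bars are list medians, dashed lines mark 2-fold and the solid line marks the median of all genes compared (-0.08). Mitosis genes all lie above 0 with no member past 2-fold, the oligoadenylate synthetase genes all lie below 0, and the C-type lectins have points far out on both sides.

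Most genes that others reported as targets of miR-142 read slightly higher in ko. Of 33 measured, 27 were compared, 22 lay above 0 and 5 below, 5 were at least 2-fold higher (against 1.39% of all genes) and 0 lower, with a median of 0.16. Arhgap32 read 6.06 in wt and 7.76 in ko, Tgfbr1, the type I TGF-beta receptor gene, 9.22 and 10.61, and Cfl2, an actin-severing cofilin gene, 9.20 and 10.56. Slc49a4, a lysosomal transporter gene also called Dirc2, read 9.33 and 10.68, and Itgav, the integrin alpha V gene, passed 2-fold as well. Lpp (9.64 and 10.55), Wasl (9.09 and 9.92) and Twf1 (10.07 and 10.82), which act on adhesion and actin, were higher by under 2-fold. In CD8-equivalent DCs the same list had a median of 0.34, with 3 of 27 members at least 2-fold higher (1.14% of all genes there were) and 0 lower. Of 33 actin and migration genes compared, which share Cfl2, Wasl and Twf1 with the target list, 1 was at least 2-fold higher (1.39% of all genes were). In this list 22 lay below 0, but its median of -0.09 was near the -0.08 of all genes compared. Centred on the median difference 19 lay below 0, and after cyclic loess 25 did. Whether the messengers carry the seed matches given above was not analysed here. Of the 14 genes of microRNA processing, 0 differed by 2-fold; the Argonaute gene Ago4, with 8.87 and 8.39, had the largest difference.

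Some progenitor genes were far higher in ko, and all mitosis genes lay slightly above 0. Of 26 progenitor and Hox-associated genes measured, with a median of 0.15, 14 were compared, 10 lay above 0 and 4 below, and 4 passed 2-fold, all of them higher in ko (1.39% of all genes were): Eya1, Hoxa9, the fetal RNA-binding protein gene Igf2bp3 (6.67 in wt and 8.19 in ko) and Myb (7.63 and 8.74), a factor of immature blood cells. Hoxa9 reached the floor on the ko array alone and so entered through it. Meis1, the partner of Hoxa9, read 8.15 and 9.11, and Hoxa5 and Hoxa7 were 0.89 and 0.77 higher, while the Flt3 ligand receptor gene Flt3 read 11.86 and 11.56. In CD8-equivalent DCs 7 of 16 were at least 2-fold higher, against 1.14% of all genes there. The 28 mitosis genes ranged from 0.18 to 0.96, with a median of 0.46; the contractile ring gene Anln read 9.35 and 10.31 and the centromere gene Cenpf 8.01 and 8.73. The median of the mitosis list was 0.54 after cyclic loess and 0.34 in CD8-equivalent DCs. The 31 DNA replication genes did not share this shift: 9 lay above 0, and their median of -0.05 turned to 0.07 after cyclic loess, so they have no settled direction. Mcm4, of the replicative helicase, read 9.73 and 9.19. All 34 respiratory chain genes stayed within -0.25 and 0.18, with a median of -0.01.

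The same genes were set beside the CD8-equivalent pair, which has its own arrays; the labels do not say whether both subsets of a genotype were sorted from the same culture, so it may not be an independent preparation. Of the 139 genes at least 2-fold higher in CD4-equivalent DCs, 121 could be compared there, 107 of them lay above 0 and 40 were also at least 2-fold higher, which is 28.8% of the CD4-equivalent and 35.1% of the CD8-equivalent list. Of the 95 lower genes, 72 could be compared, 65 lay below 0 and 31 were also at least 2-fold lower, 32.6% and 31.0% of the lists. Rnf43, Eya1, Hoxa9, Mpo, Chrm3 and Abca1 were at least 2-fold higher in both, and Gpr82, Ptger3, B4galt6, Ahrr, Slc16a14, Cd86 and Adgre1 at least 2-fold lower in both. Clec9a, Atp1b1 and Pmepa1 read high in CD8-equivalent DCs of either genotype (10.89 and 11.15, 10.90 and 11.24, 9.11 and 9.25), and their ko CD4-equivalent levels lay between those and the wt CD4-equivalent levels. Cd209c, Ffar2 and the calprotectin genes were below the floor in CD8-equivalent DCs, so no difference could be seen there. C1qb alone passed 2-fold in opposite directions, with 7.93 in wt and 5.56 in ko CD8-equivalent DCs. The difference between the subsets was not tested for any gene.

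**Figure D4:**
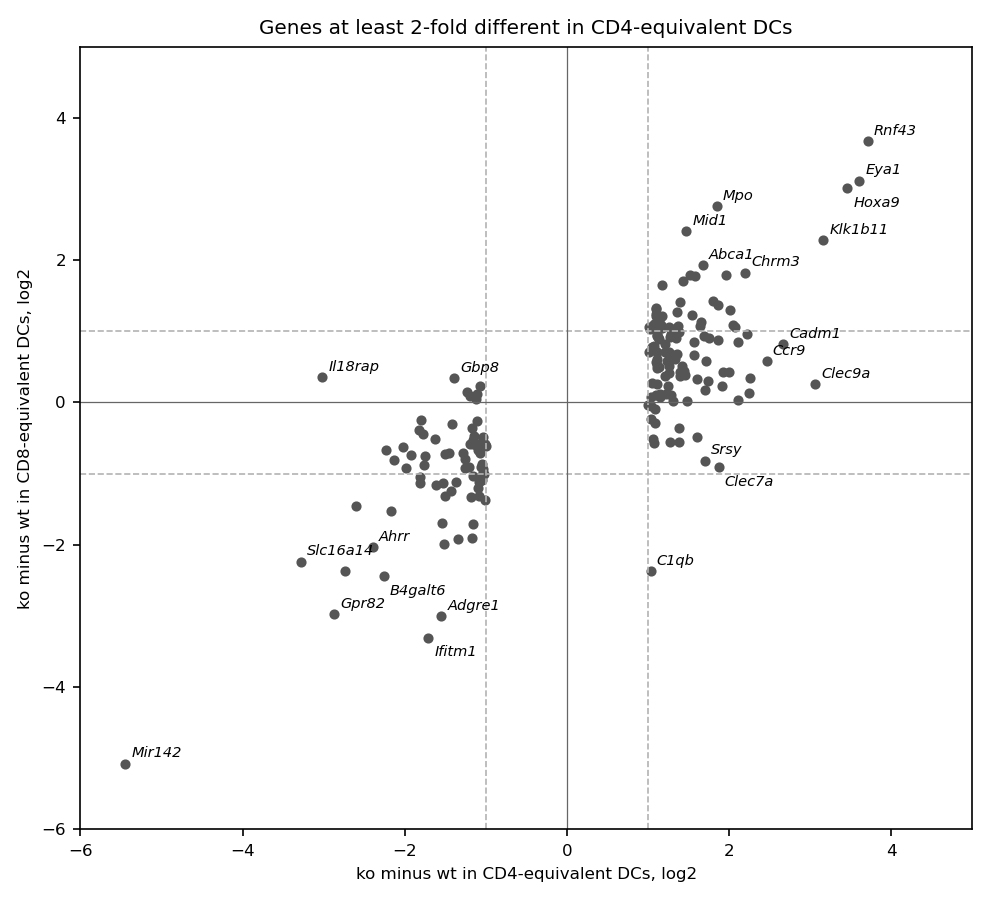
Ko minus wt log2 difference in CD8-equivalent DCs (vertical) against that in CD4-equivalent DCs (horizontal) for the 193 genes at least 2-fold different in CD4-equivalent DCs and at or above the floor in both; each point is 1 gene and dashed lines mark 2-fold. Most points have the same sign on both axes, with Rnf43 and Mir142 near the diagonal, Clec9a and Il18rap close to 0 on the vertical axis, and C1qb in the lower right.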

How the data were processed

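Gene expression was measured on 4 Affymetrix arrays, 1 per genotype and subset, from biotin-labelled total RNA. Per the submitters' processing notes the authors used RMA, which corrects background, quantile-normalises and summarises probes on the log2 scale, and Partek, and the deposited values were treated as log2; no source names the log base, which was taken from their range (3.52 to 14.3). RMA compresses differences near background, so differences of dim genes are understated. Versions of these tools are not stated in the labels.

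Of 35399 probe sets, 21789 had 1 gene symbol in the platform annotation of 2016, 1621 had several and 11989 had none here; 21698 of the single-symbol ones matched RefSeq (GRCm38.p6) by gene ID, with 0 symbols changed. Where a gene had more than 1 probe set (999 genes), the one with the highest mean was used. Ko minus wt was the difference of 2 log2 values, counted when it reached 2-fold (a log2 difference of 1). Column medians were 5.88 to 5.91 in CD4-equivalent and 5.87 to 5.94 in CD8-equivalent DCs, and 9774 to 9821 genes per array reached the floor. The counting was tested on simulated data.

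The 45 gene lists and the members were chosen with earlier results of these data known, so no list is independent evidence. Genes named are the 15 highest and 15 lowest; list members past 2-fold, or else the 2 with the largest differences; members needed to describe a role; cell type markers below the floor; genes past 2-fold in opposite directions in the subsets; Mir142 and the sort markers. Alternatives were cyclic loess (limma 3.58.1 in R 4.3.3), centring on the median, other floors, the mean of a gene's probe sets and a 3-fold limit. Other steps used Python 3.11.15 with pandas 2.3.3.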

Additional observations from a re-analysis of the deposited data

Results flagged for a closer look

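C1qb, a chain of complement C1q, was the gene whose difference had opposite signs at 2-fold in the subsets: ko minus wt was 1.03 in CD4-equivalent DCs and -2.37 in the CD8-equivalent ones. The difference between the subsets was not tested. C1qc gave 0.96, just under the limit, and -1.26.

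Probe sets with several gene symbols or none were kept out of the comparisons, and 1 of them (10468877) differed by more than Mir142, the gene with the largest difference. In CD4-equivalent DCs, 1047 probe sets with several symbols reached the floor, and 65 of them were higher in ko by 2-fold or more and 5 lower. Of the genes compared, 1.39% were higher and 0.952% lower. Only 46 of the 65 had distinct values, so the 65 are not separate measurements. Of the 65, 62 lay below 0 in CD8-equivalent DCs, with a median of -0.99. They included 23 probe sets of the small nucleolar RNA cluster Snord116 (1.08 to 1.39, only 6 distinct values) and 28 of the multi-copy Y-chromosome families of Ssty1, Sly and Gm20917 (1.01 to 1.81). The single-symbol probe sets of the related Srsy gave the same picture: all 19 lay between 0.94 and 1.82 in CD4-equivalent DCs and between -0.82 and -0.18 in the other subset. Of the 5 lower ones, 4 belong to the Sirpb1 genes, relatives of Sirpa, with differences of -1.61 to -1.47.

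Of 7281 probe sets with no symbol here that reached the floor, 179 were higher by 2-fold or more in the ko CD4-equivalent array and 192 lower. Of the genes compared, 1.39% were higher and 0.952% lower. Many of the 179 repeat the values of others on every array, as in a block at 1.17 and another at 1.03. The 179 are therefore not separate measurements, and what the probe sets without a symbol measure is not known here. Probe set 10468877 had the largest difference, 6.05, with 4.87 in wt and 10.91 in ko, and 5.67 in CD8-equivalent DCs. Altogether 6 such probe sets were at least 16-fold higher, by 4.51 to 6.05, and by 4.82 to 5.67 in CD8-equivalent DCs. Of these, 4 carried identical values on every array (7.16 in wt and 12.59 in ko CD4-equivalent DCs), so they count as 1 measurement.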

How the results depend on the processing

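With 1 array a side nothing can be left out, and the precision of every value is limited by that number; signal near background limits the genes close to the floor. No paired analysis was possible because each group holds 1 array. In CD4-equivalent DCs the 139 higher and 95 lower genes became 69 and 33 with a floor at the upper quartile and 44 and 29 at 3-fold; in CD8-equivalent DCs the counts became 47 and 41, and 25 and 30. After cyclic loess they were 174 and 77 in CD4-equivalent DCs, a share of higher genes of 69.3% against 59.4% as deposited. Without a floor, with both values at the floor or over the mean of a gene's probe sets, the counts stayed within 1.5 times. No difference of the 103 genes tried reversed its sign. After cyclic loess Cxcr3 (-0.98), Tlr8 (-0.96), Ier3 (-0.94), Gpr18 and P2ry14 (-0.91 each) fell short of 2-fold, as did Clec4a2, Dhx58 and Xaf1. Ifitm1 was -2.01 over the mean of its probe sets. The cause was not tested.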

Other observations

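Outside the lists, Rny1, a Y RNA gene, read 9.34 in wt and 10.79 in ko CD4-equivalent DCs, and Ro60, whose product binds Y RNAs, 7.22 and 8.24; in CD8-equivalent DCs they were 0.39 and 1.04 higher in ko. Several enzyme genes were higher in ko CD4-equivalent DCs and little different in CD8-equivalent DCs: the sphingomyelinase-like Smpdl3a (6.70 and 8.82, with 0.03 in CD8-equivalent DCs), the epoxide hydrolase gene Ephx1 (6.55 and 8.04, with 0.03) and Upb1, of pyrimidine breakdown (5.45 and 7.37, with 0.23). Tmem119, known from microglia, read 5.89 and 7.85 and was 1.80 higher in CD8-equivalent DCs too. These genes were chosen after their values were seen.

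The 2-fold genes were spread over the range of levels. In 4 equal groups of the genes compared, from the dimmest to the brightest, 37, 33, 43 and 26 were higher in ko and 26, 36, 24 and 9 lower, with SDs of the difference of 0.38, 0.41, 0.40 and 0.33.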
